A study of Mus musculus with 6 samples.

Results

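The genes described here encode the enzymes that carry pyruvate and the branched-chain amino acids into the mitochondrial tricarboxylic acid (TCA) cycle, and the enzymes of the cycle itself. They are 40 of the 22134 genes in the deposited expression table, chosen by symbol for their function: 14 of the TCA cycle, 9 of the pyruvate step (the mitochondrial pyruvate carrier, pyruvate dehydrogenase and its kinases) and 17 of branched-chain amino acid breakdown. All 40 symbols were found and all 40 passed the filter on low values. RNA was sequenced from adipose tissue of wild-type (WT) mice, 3 samples of creeping fat, taken where the colon had been injured repeatedly with a cautery, and 3 controls of mesenteric adipose tissue without that injury. Creeping fat is the mesenteric fat that extends over injured bowel. Strain, sex, age and the time from injury to sampling are not given in the sources used here. Whether each sample is a separate animal is not stated in the labels, and p-values therefore describe the spread of these libraries, part of which may be technical.

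Values are FPKM, fragments scaled by gene length and library depth, so they can be compared between genes. Whole reads worked out from the FPKM steps gave totals of 31186018 to 43415696 per library, overlapping between the groups. A member had at least 48 reads in each library (Bcat1 in control 1), and at least 418 with Bcat1 left out. Each difference is the creeping fat mean less the control mean on the log2(FPKM + 1) scale, with limma's standard error; at low FPKM this scale makes a change look smaller than it is. A gene was called, and is said to have risen or fallen, at a Benjamini-Hochberg adjusted p under 0.05 over all 12812 genes tested with limma. Both groups expressed adipocyte markers, with Adipoq, the adiponectin gene, at 451 to 1536 FPKM in controls and 80.1 to 174 in creeping fat. Transcripts of the exocrine pancreas held 5.53% to 14.4% of the FPKM total in controls and 0.0944% to 2.15% in creeping fat. Seminal vesicle transcripts held 5.17% to 9.24% in creeping fat, against 0.0164% or less in controls. Control 2 stood apart from the other controls, with 1.91% of its total in 20 adipocyte markers against 5.24% and 4.84% in control 1 and 3.

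As background, the pyruvate carrier brings pyruvate across the inner mitochondrial membrane, and pyruvate dehydrogenase converts it to acetyl-CoA. Kinases of the Pdk family phosphorylate that enzyme and switch it off. Leucine, isoleucine and valine lose their amino group to a branched-chain aminotransferase, then pass through the branched-chain ketoacid dehydrogenase, which its own kinase Bckdk switches off in the same way, and end as acetyl-CoA and succinyl-CoA. Adipocytes take up and oxidize branched-chain amino acids, and their breakdown rises as fat cells differentiate. Citrate that leaves the cycle supplies the carbon for fatty acid synthesis in the same cells.

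Promoters are shown for the 3 genes that fell under every setting tried and for the 1 that rose, so that members that moved apart can be compared. Each is 300 bases from RefSeq (GRCm38.p6, the assembly of the mm10 build), from 250 before to 50 after the annotated start, 5′ to 3′ on the gene's strand. Capitals mark CCAAT or its reverse complement ATTGG, the box bound by the factor NF-Y. For Bckdhb the outer of the annotated starts is shown.
Pdk4 (chr6:5496229-5496528, minus strand): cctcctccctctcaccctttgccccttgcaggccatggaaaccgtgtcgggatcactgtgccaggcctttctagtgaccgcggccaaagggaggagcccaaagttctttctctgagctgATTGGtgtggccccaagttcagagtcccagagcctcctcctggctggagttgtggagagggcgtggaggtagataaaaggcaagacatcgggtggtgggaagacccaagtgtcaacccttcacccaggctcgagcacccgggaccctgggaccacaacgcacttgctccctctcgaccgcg
Bckdhb (chr9:83924887-83925186, plus strand): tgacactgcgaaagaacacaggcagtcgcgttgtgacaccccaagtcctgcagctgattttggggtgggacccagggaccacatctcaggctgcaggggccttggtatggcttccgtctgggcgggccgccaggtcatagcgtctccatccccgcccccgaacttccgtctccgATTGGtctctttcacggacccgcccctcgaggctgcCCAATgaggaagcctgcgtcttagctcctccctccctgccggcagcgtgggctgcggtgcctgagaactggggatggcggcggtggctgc
Ivd (chr2:118861744-118862043, plus strand): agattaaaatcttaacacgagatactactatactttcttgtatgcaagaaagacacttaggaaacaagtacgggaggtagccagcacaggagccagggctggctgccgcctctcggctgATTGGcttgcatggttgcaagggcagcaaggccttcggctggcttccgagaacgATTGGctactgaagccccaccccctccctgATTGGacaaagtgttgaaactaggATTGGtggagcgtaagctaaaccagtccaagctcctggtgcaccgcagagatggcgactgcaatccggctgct
Pdk3 (chrX:93832101-93832400, minus strand): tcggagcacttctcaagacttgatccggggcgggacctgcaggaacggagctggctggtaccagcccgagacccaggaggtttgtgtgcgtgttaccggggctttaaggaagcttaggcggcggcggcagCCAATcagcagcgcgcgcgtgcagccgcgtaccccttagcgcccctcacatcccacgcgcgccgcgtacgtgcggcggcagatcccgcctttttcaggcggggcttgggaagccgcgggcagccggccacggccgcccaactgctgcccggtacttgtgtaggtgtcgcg
The box occurred 1 time in Pdk4, 2 times in Bckdhb, 4 times in Ivd and 1 time in Pdk3, so genes that fell and the gene that rose both held it. It was searched after these sequences had been read. The 4 genes are counted in the members' shares that follow, so those shares draw in part on letters already seen. Among the 37 members with a promoter entry, 23 held the box, these 4 included, or 62.2%. The box was in 42.5% of the 10202 tested genes with an entry and in 41.1% of all genes with one. By promoter, 31 of the members' 50 held it, against 37.4% of all 32851 promoters. Here and below, shares of genes count a gene once for a match at any start, and shares of promoters count each start apart. Acat1, Dbt and Idh3a had no entry. The other motifs were searched on both strands, none overlapping the NF-Y box. TCAAGGTCA, bound by estrogen-related receptors, was in 0 of the 37, in 0.294% of tested genes and in 0.423% of all promoters. GCGCA, any base and GCGC, bound by NRF1, was in 4 (Dld, Hibadh, Pccb and Sucla2), or 10.8%, against 10.9% of tested genes and 4.603% of all promoters. CCGGAAG, bound by GABPA, was in 5 (Auh, Dlst, Idh3b, Idh3g and Mpc1), or 13.5%, against 19.1% of tested genes and 8.86% of all promoters. GTAAACA, bound by FOXO factors, was in 2 (Auh and Hibadh), or 5.41%, against 3.16% of tested genes and 3.65% of all promoters. The 4 promoters printed held none of those 4 motifs. Their CpG dinucleotides numbered 12 in Pdk4, 20 in Bckdhb, 11 in Ivd and 35 in Pdk3, where the median over the members was 20, as it was over the tested genes. A match is a description of these letters and not evidence of binding.

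Of the 40 members, 22 fell in creeping fat, 1 rose and 17 did not pass. In bulk tissue, fewer cells of a type and less RNA per cell cannot be told apart. Among all genes tested 6.81% fell, 9.35% rose and 16.2% were called in either direction. The members' median difference was -1.04, against 0.02 over all genes tested, and 38 of 40 differences were negative, as were 48.3% over all genes. In 32 members all 3 creeping fat libraries lay below all 3 controls, a pattern found in 16.9% of genes tested, and in 2 (Pdk3 and Bcat1) they lay above, a pattern found in 20.2%. Bcat1 passed the filter on low values only through creeping fat, so its order was fixed by that filter. The plot of FPKM by library shows the same order in most members, with control 1 or 3 at the top and creeping fat 2 the highest of its group in 36 of 40. Control 2 was the lowest control in 37 of 40 members and in 29.8% of all genes tested.

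**Figure D1:**
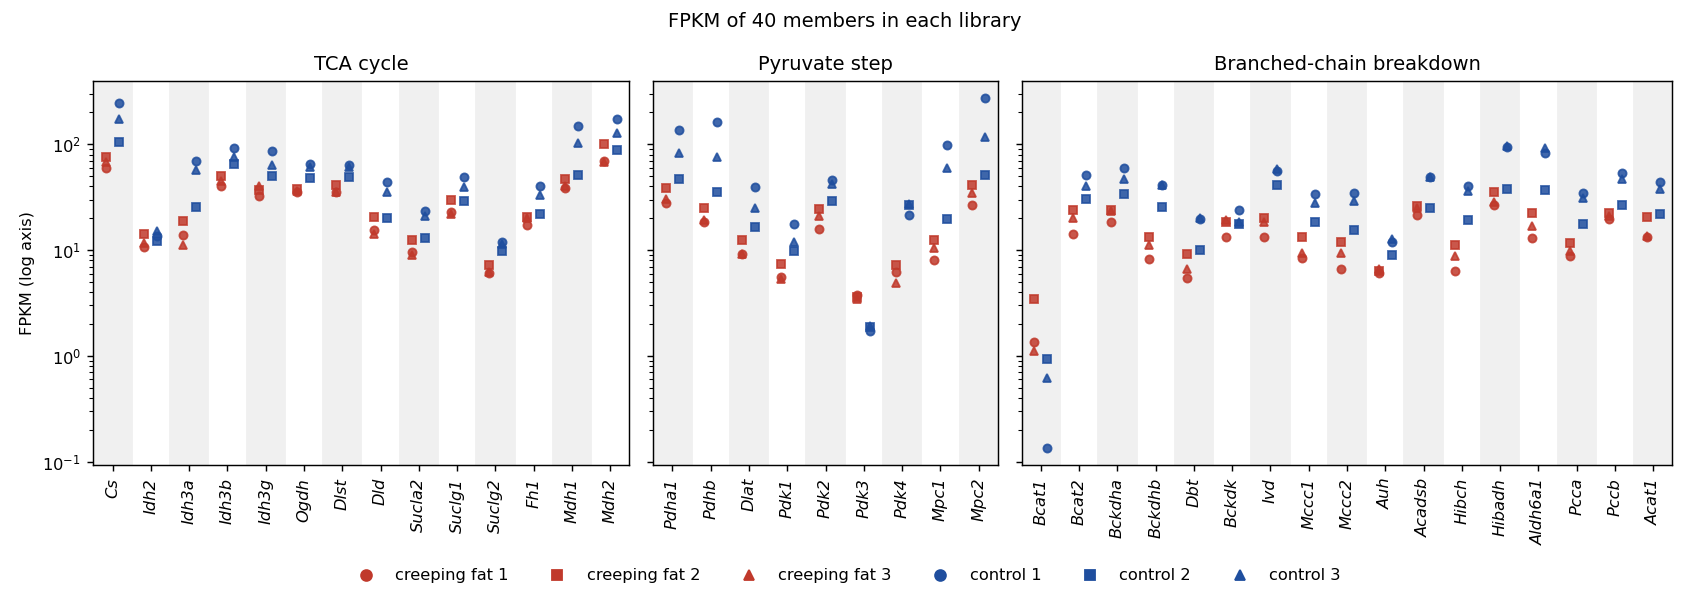
FPKM (log axis) of the 40 members in each of 6 libraries, red for creeping fat and blue for control, with 1 marker shape per replicate number. In 32 members the red points all lie below the blue ones, and the blue square, control 2, is the lowest control in 37.

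The 14 TCA cycle genes all had negative differences, and 7 of them fell (median -0.72, against 0.02 over all genes tested, where 6.81% fell). Cs encodes citrate synthase, which joins acetyl-CoA to oxaloacetate at the entry of the cycle. In FPKM, creeping fat 1 to 3 held 60.3, 75.8 and 68.8 of it, and control 1 to 3 held 243, 105 and 174. The groups did not overlap, and Cs fell by 1.27 ± 0.30 (SE; adjusted p = 0.0335). All 3 subunits of the NAD-dependent isocitrate dehydrogenase, which makes 2-oxoglutarate, fell. Idh3a, its catalytic subunit, stood at 13.9, 18.7 and 11.3 FPKM in creeping fat and 68.9, 25.4 and 57.1 in controls. It fell by 1.63 ± 0.38 (adjusted p = 0.0303), the largest change of the 14. Idh3b stood at 40.4, 49.999 and 45.5 FPKM against 91.7, 64.5 and 75.6, and fell by 0.75 ± 0.18 (adjusted p = 0.0318). Idh3g stood at 32.5, 36.9 and 40.3 against 85.7, 49.8 and 63.5, and fell by 0.81 ± 0.22 (adjusted p = 0.0489). In each of these genes control 2 was the control nearest to creeping fat. Idh2, the NADP-dependent mitochondrial isocitrate dehydrogenase, stood at 10.8, 14.2 and 11.7 FPKM against 13.6, 12.3 and 15.2. Its groups overlapped, and its difference was -0.16 ± 0.16 (adjusted p = 0.562).

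Of the later steps of the cycle, 3 genes fell and 6 did not pass. Ogdh, the first subunit of the 2-oxoglutarate dehydrogenase, stood at 35.8, 38.0 and 35.8 FPKM in creeping fat and 65.4, 47.6 and 60.4 in controls, and fell by 0.64 ± 0.16 (adjusted p = 0.0387). Dlst, its core subunit, fell by 0.61 ± 0.16 (37.4 ± 3.1 FPKM against 57.8 ± 7.49, SD, n = 3; adjusted p = 0.0403 from limma). Dld, the lipoamide dehydrogenase shared by the pyruvate, 2-oxoglutarate and branched-chain complexes, overlapped between the groups, with 20.6 FPKM in creeping fat 2 and 20.2 in control 2 (-0.90 ± 0.30, adjusted p = 0.0909). Of the succinyl-CoA ligase, the GTP-forming subunit Suclg2 stood at 6.07, 7.16 and 6.20 FPKM against 11.9, 9.75 and 11.5, and fell by 0.68 ± 0.14 (adjusted p = 0.0202). The ATP-forming subunit Sucla2 (-0.81 ± 0.24, adjusted p = 0.0664) and the shared subunit Suclg1 (-0.63 ± 0.23, adjusted p = 0.109) did not pass. Suclg2 made up 38.7% ± 2.2 of the Sucla2 and Suclg2 sum in creeping fat and 37.2% ± 4.8 in controls, ranges that overlapped (exact two-sided permutation p = 0.7). Fh1, the fumarase, did not pass (-0.65 ± 0.23, adjusted p = 0.108). Mdh2, the mitochondrial malate dehydrogenase and with Cs one of the most abundant of the 14, stood at 69.2, 100.1 and 67.4 FPKM against 174, 88.8 and 128. Creeping fat 2 lay above control 2, and the difference was -0.69 ± 0.28 (adjusted p = 0.156). Mdh1, the cytosolic form, stood at 41.9 ± 4.3 FPKM against 101.2 ± 48.9 (-1.13 ± 0.37, adjusted p = 0.0855 from limma). The count rested on single libraries. Without control 2, 13 of 14 fell (median -0.91; 14.5% of all genes tested fell), and without any 1 of the other 5 libraries none of the 14 was called by limma, with medians from -0.62 to -0.82 and adjusted p of the 7 genes from 0.0545 to 0.178.

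**Figure D2:**
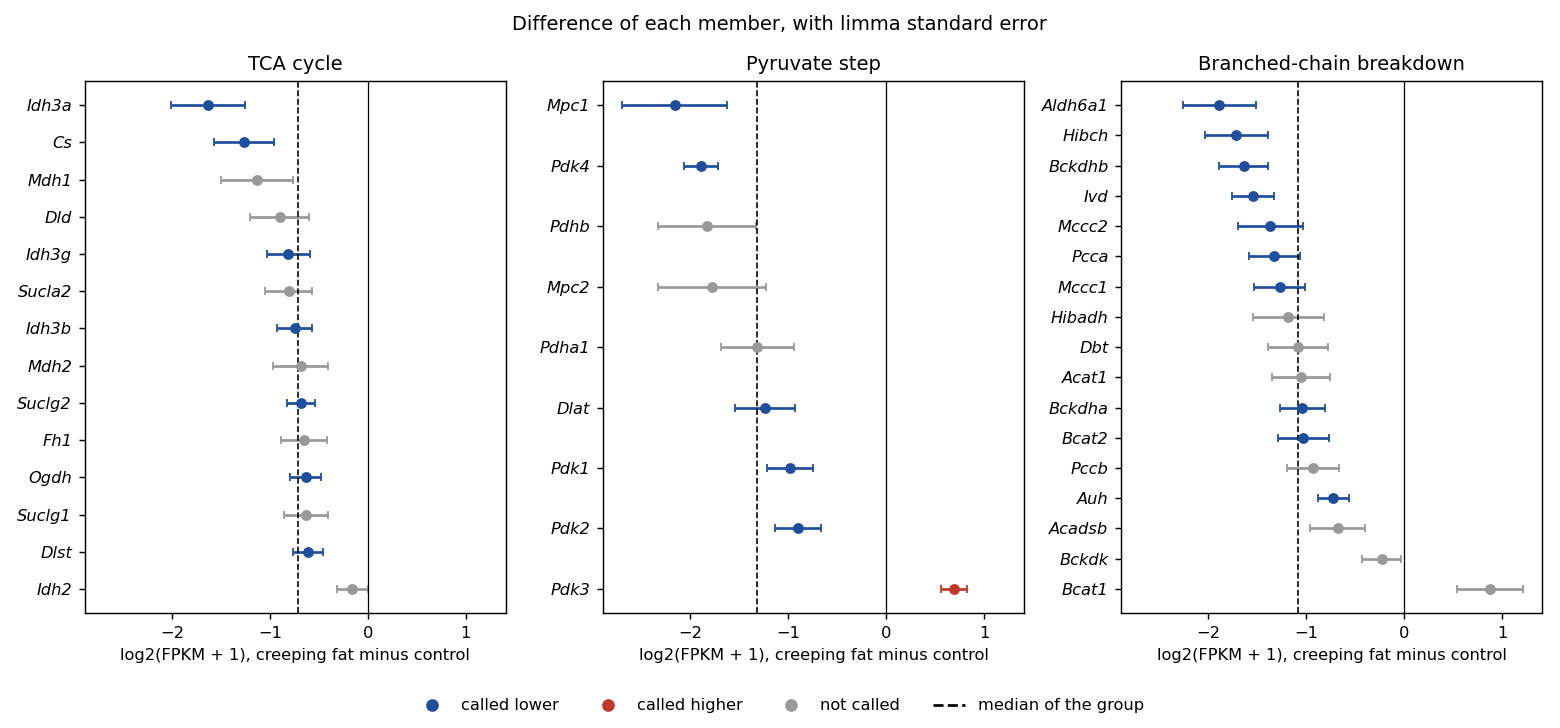
Creeping fat less control difference on the log2(FPKM + 1) scale for each member, with limma's standard error as the bar, blue for called lower, red for called higher and grey for not called. The dashed lines are the group medians of -0.72, -1.31 and -1.08, and Pdk3 is the 1 red point.

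Of the 9 genes of the pyruvate step, 5 fell, Pdk3 rose and 3 did not pass (median -1.31), where 6.81% of all genes tested fell and 9.35% rose. In all 9 the groups did not overlap, as in 37.0% of all genes tested. Mpc1, a subunit of the mitochondrial pyruvate carrier (chromosome 17, 8283787 to 8297667), stood at 8.14, 12.4 and 10.6 FPKM in creeping fat and 98.4, 19.9 and 59.7 in controls. The controls spread 5-fold, and Mpc1 fell by 2.16 ± 0.54 (adjusted p = 0.0372). Mpc2, its partner subunit, stood at 26.97, 40.9 and 34.6 against 271, 51.5 and 117 and did not pass (-1.78 ± 0.55, adjusted p = 0.0748). The ratio of Mpc1 to Mpc2 was 0.302, 0.303 and 0.305 in creeping fat and 0.363, 0.386 and 0.509 in controls. These ratios did not overlap (exact two-sided permutation p = 0.1, the smallest that 3 against 3 can give, and 0.2 adjusted over the 10 shares and ratios computed).

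Pyruvate dehydrogenase itself stood lower in each creeping fat library than in each control. Dlat, its core acetyltransferase, stood at 9.28, 12.5 and 9.14 FPKM against 39.4, 16.5 and 24.96, and fell by 1.23 ± 0.31 (adjusted p = 0.0383). Pdha1, the catalytic subunit that the kinases phosphorylate, stood at 27.9, 39.1 and 30.4 against 136, 47.3 and 83.1 (-1.31 ± 0.37, adjusted p = 0.0563). Pdhb, its partner, stood at 18.6, 25.1 and 19.2 against 162, 35.5 and 76.2 (-1.82 ± 0.50, adjusted p = 0.052). The differences of Pdha1 and Pdhb were larger than that of Dlat, but so were their standard errors, with control 1 far above control 2. Both fell after FPKM were rescaled without the seminal vesicle and pancreas genes, and after quantile normalization (adjusted p = 0.0412 and 0.0456). Quantile normalization ended the calls of Dlat (adjusted p = 0.0585) and of the kinase Pdk1 (adjusted p = 0.0613).

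The 4 kinases did not move alike. Pdk4, the isoform induced by fasting and fatty acids (chromosome 6, 5483351 to 5496278), stood at 6.24, 7.21 and 4.90 FPKM in creeping fat and 21.7, 26.9 and 27.2 in controls. Its controls lay close together, control 2 included, and it fell by 1.89 ± 0.18 (adjusted p = 0.00169). Pdk1, an isoform induced by hypoxia, stood at 5.52, 7.32 and 5.33 FPKM against 17.7, 9.92 and 11.9, and fell by 0.98 ± 0.23 (adjusted p = 0.0314). Pdk2, the most abundant kinase in both groups, stood at 15.7, 24.6 and 21.2 against 45.7, 29.0 and 42.6, and fell by 0.90 ± 0.24 (adjusted p = 0.0454). Pdk3 (chromosome X, 93764616 to 93832150), the lowest of the 4, stood at 3.77, 3.62 and 3.43 FPKM in creeping fat and 1.72, 1.90 and 1.93 in controls. It rose by 0.69 ± 0.13 (adjusted p = 0.0152). In controls the order by mean FPKM was Pdk2, Pdk4, Pdk1 and Pdk3, without overlap between neighbours. In creeping fat Pdk4 and Pdk1 overlapped, at means of 6.12 ± 1.2 and 6.05 ± 1.1 FPKM. As a share of the FPKM of the 4 kinases, Pdk4 took 19.95%, 16.9% and 14.1% in creeping fat and 24.97%, 39.7% and 32.5% in controls. Pdk3 took 12.1%, 8.47% and 9.85% against 1.98%, 2.80% and 2.30%, a mean 4.29 times as high in creeping fat. Neither share overlapped between the groups (each exact two-sided permutation p = 0.1, 0.2 adjusted over 10), while those of Pdk1 and Pdk2 did (p = 0.9 and 0.3). The sum of the kinases over Pdha1 and Pdhb was 0.666 to 0.704 in creeping fat and 0.291 to 0.818 in controls, so the groups overlapped (exact p = 0.5). Of the 6 calls in the pyruvate step, Pdk4 was called without each library in turn (adjusted p from 0.000804 to 0.0136 over those fits). Pdk3 was called without control 1 or control 2, and had adjusted p of 0.0608 to 0.0795 without each of the others. Mpc1, Dlat, Pdk1 and Pdk2 were called only without control 2 among these fits. There 8 of the 9 genes fell, as did 14.5% of all genes tested, and without the other libraries the group's median ran from -0.94 to -1.45.

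**Figure D3:**
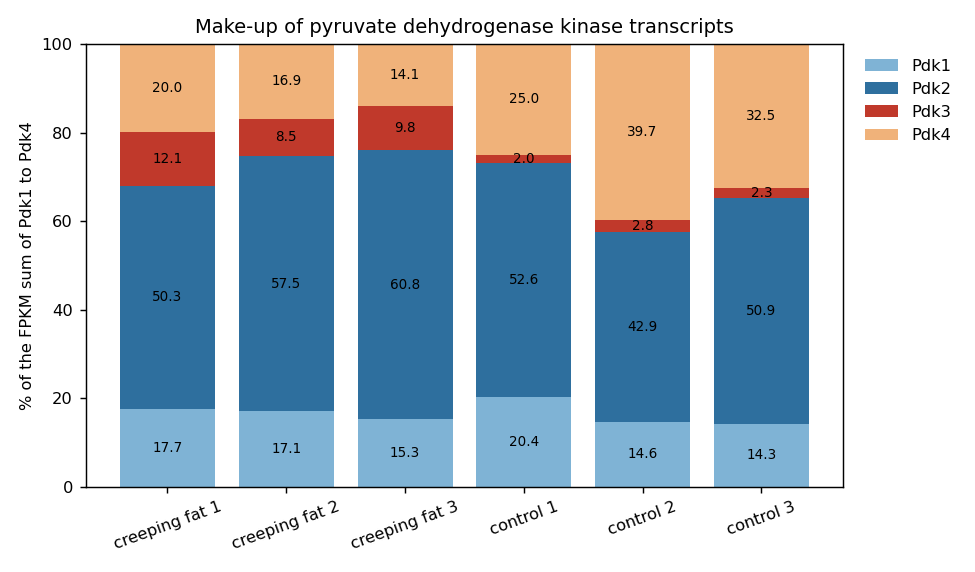
Share of each kinase in the FPKM sum of Pdk1 to Pdk4 (%), 1 bar per library. The red Pdk3 segment is 8.47% to 12.1% in creeping fat and 1.98% to 2.80% in controls, and the orange Pdk4 segment is smaller in each creeping fat library than in each control.

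In branched-chain breakdown 10 of 17 genes fell and none rose (median -1.08). Over all genes tested 6.81% fell and 9.35% rose (median 0.02). Bcat2, the mitochondrial aminotransferase that starts the pathway in most tissues, stood at 14.2, 24.2 and 20.2 FPKM in creeping fat and 51.8, 30.6 and 40.7 in controls, and fell by 1.03 ± 0.26 (adjusted p = 0.0386). Bcat1, the cytosolic form, was low throughout, at 1.36, 3.43 and 1.11 FPKM against 0.136, 0.935 and 0.616. Each creeping fat library lay above each control, but the difference of 0.88 ± 0.34 did not pass (adjusted p = 0.13), and it ranged from 0.55 to 1.08 with 1 library left out. Bcat1 reached 1 FPKM only in creeping fat and passed the filter through those libraries, so that order was fixed by the filter. Bcat1 made up 8.76%, 12.4% and 5.19% of the Bcat1 and Bcat2 sum in creeping fat and 0.262%, 2.97% and 1.49% in controls (exact two-sided permutation p = 0.1, 0.2 adjusted over 10). This share draws on the same Bcat1 values.

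The branched-chain ketoacid dehydrogenase commits the carbon skeletons to breakdown. Bckdhb, a subunit of its E1 component (chromosome 9, 83925111 to 84124240), stood at 8.16, 13.4 and 11.1 FPKM in creeping fat and 41.1, 25.8 and 41.7 in controls, and fell by 1.64 ± 0.25 (adjusted p = 0.00796). Bckdha, the subunit that the kinase phosphorylates, stood at 21.9 ± 3.1 FPKM against 47.0 ± 13.04 and fell by 1.04 ± 0.23 (adjusted p = 0.0263 from limma). Dbt, the core subunit, did not pass, although its groups did not overlap (-1.08 ± 0.30, adjusted p = 0.0556). Bckdk, the kinase that switches the complex off, stood at 13.3, 18.5 and 19.3 FPKM against 24.1, 17.7 and 18.5. Its groups overlapped and it did not pass (-0.23 ± 0.20, adjusted p = 0.491). Bckdk relative to Bckdha and Bckdhb stood at 0.502, 0.496 and 0.557 in creeping fat and 0.239, 0.297 and 0.208 in controls, a mean 2.09 times as high without overlap (exact two-sided permutation p = 0.1, 0.2 adjusted over 10). Ppm1k, the phosphatase that reverses the kinase, did not pass (-0.15 ± 0.20, adjusted p = 0.692), and its ratio to Bckdk overlapped between the groups (exact p = 0.9).

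Downstream, genes of the leucine branch, the valine branch and the shared propionyl-CoA step fell. Acat1 and Acadsb of the isoleucine branch had negative differences that did not pass, and both fell without control 2. Ivd, the isovaleryl-CoA dehydrogenase of leucine breakdown (chromosome 2, 118861959 to 118882909), stood at 13.2, 20.3 and 18.6 FPKM in creeping fat and 56.3, 41.6 and 58.9 in controls, and fell by 1.54 ± 0.22 (adjusted p = 0.00582). The 2 subunits of methylcrotonyl-CoA carboxylase, the next leucine step, also fell, Mccc1 by 1.27 ± 0.26 (adjusted p = 0.0199) and Mccc2 by 1.37 ± 0.33 (adjusted p = 0.0343). Mccc2 stood at 6.61, 11.9 and 9.42 FPKM against 34.8, 15.4 and 28.9. Auh, the hydratase after it, fell by 0.73 ± 0.16 (adjusted p = 0.025). In valine breakdown Hibch, the hydroxyisobutyryl-CoA hydrolase, stood at 6.29, 11.3 and 8.85 FPKM against 40.2, 19.2 and 36.6, and fell by 1.72 ± 0.32 (adjusted p = 0.0143). Aldh6a1, the methylmalonate semialdehyde dehydrogenase at the end of that branch, stood at 12.9, 22.6 and 17.1 against 83.7, 37.1 and 92.5, and fell by 1.89 ± 0.38 (adjusted p = 0.0176), the largest fall of the 17. Hibadh, the dehydrogenase between them and the most abundant of the 17, stood at 26.97, 35.3 and 28.7 against 93.8, 37.9 and 95.5 and did not pass (-1.19 ± 0.36, adjusted p = 0.071). Control 2 lay near creeping fat 2 in Hibadh and far below the other controls. Pcca, a subunit of propionyl-CoA carboxylase, stood at 8.79, 11.6 and 9.84 FPKM against 34.6, 17.7 and 30.9, and fell by 1.33 ± 0.26 (adjusted p = 0.0173). Its partner Pccb (-0.93 ± 0.26, adjusted p = 0.0563), the isoleucine thiolase Acat1 (-1.06 ± 0.29, adjusted p = 0.0543) and Acadsb, the dehydrogenase of the isoleucine branch (-0.68 ± 0.28, adjusted p = 0.157), did not pass. Bckdhb and Ivd were called without each library in turn, with adjusted p of at most 0.0400 and 0.0319. Hibch was also called without creeping fat 2, control 1 or control 2, and Mccc1, Aldh6a1 and Pcca without creeping fat 2 or control 2. Bcat2, Bckdha, Mccc2 and Auh were called only without control 2 among these fits. Quantile normalization ended the calls of Mccc2 (adjusted p = 0.0526) and Auh (adjusted p = 0.0562). The count was 15 without control 2, 6 without creeping fat 2, 3 without control 1 and 2 without each of the other libraries, with medians from -0.94 to -1.40. Over all genes tested 14.5%, 3.79% and 3.98% fell in the first 3 of these fits and 2.24% to 2.67% in the others.

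Related genes from lists that hold no member were called in both directions, where 6.81% of all genes tested fell and 9.35% rose. Of 19 tested genes of the cycle's other enzymes and its filling and export steps, 6 fell and 3 rose (median -0.52). Pcx, the pyruvate carboxylase that refills oxaloacetate, stood at 20.4, 61.6 and 41.8 FPKM in creeping fat and 672, 197 and 346 in controls, and fell by 3.22 ± 0.54 (adjusted p = 0.0103). The mitochondrial citrate carrier Slc25a1 fell by 2.57 ± 0.60 (adjusted p = 0.0296) and the dicarboxylate carrier Slc25a10 by 1.97 ± 0.44 (adjusted p = 0.027). The aspartate aminotransferases Got1 and Got2 rose by 0.73 ± 0.14 and 0.62 ± 0.13 (adjusted p = 0.0175 and 0.0212), and Ogdhl, a homologue of Ogdh, rose by 1.03 ± 0.19 (adjusted p = 0.0135) from 0.141 to 0.290 FPKM in controls to 1.14 to 2.06. Ogdhl, counted among the 3, passed the filter on low values only through creeping fat. That filter favoured a rise, so its call carries no weight of its own. Of 14 tested genes around pyruvate 5 fell and 2 rose (median -0.53). Slc16a3, a lactate exporter, stood at 10.7, 9.80 and 8.31 FPKM against 0.890, 1.99 and 0.809 and rose by 2.28 ± 0.23 (adjusted p = 0.00224). Among controls only control 2 reached 1 FPKM, so Slc16a3, like Ogdhl, passed the filter only through creeping fat. Its call therefore carries no weight of its own either. Pdp1, the phosphatase that reverses the Pdk kinases, rose by 0.87 ± 0.16 (adjusted p = 0.0128). Gpt and Gpt2, the alanine aminotransferases, fell by 2.65 ± 0.57 and 1.54 ± 0.27 (adjusted p = 0.0227 and 0.0125). Of 23 other genes around branched-chain breakdown 9 fell and 1 rose (median -0.58). Klf15, a transcription factor that promotes that breakdown, stood at 3.04, 3.32 and 3.72 FPKM against 10.8, 8.85 and 10.7 and fell by 1.35 ± 0.14 (adjusted p = 0.00276). Hadh and Acadm, dehydrogenases also used in fatty acid oxidation, fell by 1.73 ± 0.31 and 1.42 ± 0.31 (adjusted p = 0.0134 and 0.0238), and Abat, which acts on a side branch of valine, rose by 1.09 ± 0.26 (adjusted p = 0.0322). Of these genes Pcx, Slc16a3 and Klf15 were called without each library in turn, and each of the others lost its call without creeping fat 1 and at least 1 further library. In those fits none changed sign. The same genes were tested in them, so the filter's limit on Slc16a3 and Ogdhl held there too.

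Summed over each group, the 14 TCA cycle genes held 408, 512 and 428 FPKM in creeping fat and 1124, 588 and 879 in controls. The pyruvate step held 122, 173 and 139 FPKM against 793, 238 and 445, and branched-chain breakdown 204, 295 and 250 against 734, 389 and 688. Means over controls were 1.92, 3.41 and 2.42 times those of creeping fat in this order. Of 28 tested genes of mitochondrial import and maintenance 8 fell and none rose (median -0.43), where 6.81% of all genes tested fell and 9.35% rose. Their sum was 956 to 1152 FPKM in creeping fat and 1179 to 1911 in controls, a ratio of 1.52. Of these, Timm50, an import translocase subunit, fell by 1.012 ± 0.25 (adjusted p = 0.0346), the chaperonin gene Hspd1 by 0.96 ± 0.18 (adjusted p = 0.0154), and the fusion gene Mfn2 by 0.94 ± 0.20 (adjusted p = 0.0227). These 3 lost their calls without creeping fat 1, creeping fat 3 or control 3. Of 20 adipocyte markers 18 fell (median -2.60), and their sum was 1437 to 3497 FPKM in creeping fat and 6531 to 19080 in controls, a ratio of 5.98. Relative to the adipocyte sum, the members' sum was 0.511, 0.280 and 0.378 in creeping fat and 0.139, 0.186 and 0.120 in controls, higher in each creeping fat library. Relative to the mitochondrial sum it was 0.768, 0.850 and 0.808 against 1.39, 1.03 and 1.22, lower in each. The 3 groups differed in size of change. Over the mitochondrial sum, the creeping fat mean was 0.80 times that of controls for the TCA cycle, 0.47 for the pyruvate step and 0.63 for branched-chain breakdown. Over the adipocyte sum it was 3.12, 1.90 and 2.46 times in this order. These ratios were computed after the data had been seen, and each had an exact two-sided permutation p of 0.1, the smallest possible, and 0.1 adjusted over 8 ratios.

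**Figure D4:**
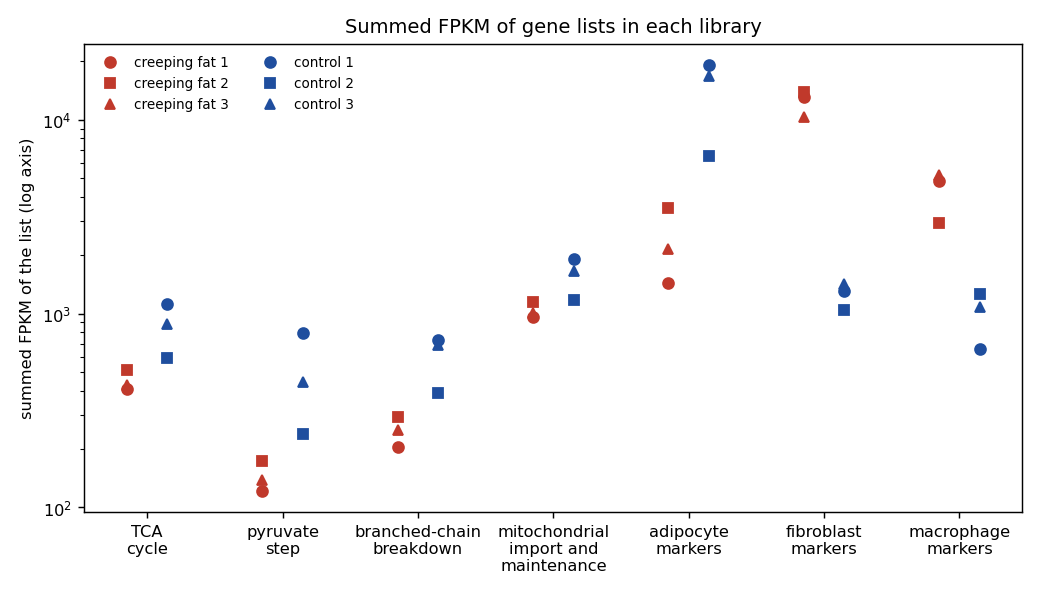
Summed FPKM (log axis) of 7 gene lists in each library, red for creeping fat and blue for control. The 3 member groups, the mitochondrial list and the adipocyte markers lie lower in each creeping fat library than in each control, and the fibroblast and macrophage markers lie higher.

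Markers of other cell types moved in different directions, where 6.81% of all genes tested fell and 9.35% rose. All 11 fibroblast markers rose, with sums of 10329 to 13854 FPKM in creeping fat and 1048 to 1421 in controls, and 10 of 11 macrophage markers rose, with sums of 2931 to 5178 against 653 to 1258. Of 33 tested pancreas genes 20 fell and 1 rose, and all 11 tested seminal vesicle genes rose. The seminal vesicle list summed to 0.171 FPKM in control 1, so none of its genes could pass the filter on low values without creeping fat. That filter favoured a rise, so the count of 11 carries no weight of its own. All 7 endothelial markers had negative differences and 2 fell, with sums of 180 to 231 FPKM in creeping fat and 267 to 293 in controls. None of 9 lymphocyte markers was called by limma, and their sums of 60.6 to 213 and 95.8 to 387 FPKM overlapped, with the highest in control 2. Ucp1, the defining marker of brown adipocytes, was at most 1.31 FPKM in any library. The 7 brown adipocyte markers, a list that shares Cidea with the adipocyte markers, summed to 15.2, 44.9 and 18.6 FPKM in creeping fat. In controls they summed to 113, 60.2 and 60.2 FPKM. The 3 that were tested had negative differences (median -1.63), and none was called by limma. The part of these cell types in the members' differences was not tested. Pancreas genes took 11.2%, 14.4% and 5.53% of control 1 to 3, where the members' sum was 2651, 1216 and 2012 FPKM. In creeping fat 1 to 3 they took 0.0948%, 2.15% and 0.0944%, with members' sums of 734, 979 and 817 FPKM. A link between these values was not tested. With FPKM rescaled to totals that leave out the pancreas and seminal vesicle genes, 27 members fell and 1 rose, all 23 calls among them, where 7.17% and 8.66% of genes did. Exons of 6 members overlap on the opposite strand with another gene of the table (Aldh6a1, Bckdha, Idh3b, Mdh1, Pcca and Pdha1), and those of 4 others with genes outside it (Bcat1, Bcat2, Mccc1 and Mpc1). Since strand use in counting is not stated, reads of these pairs cannot be told apart.

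Over all settings tried, 3 members were called in each: Pdk4, Bckdhb and Ivd. The number that fell was 3 without creeping fat 1, 7 without creeping fat 2, 3 without creeping fat 3, 4 without control 1, 36 without control 2 and 3 without control 3, where 2.24%, 3.79%, 2.67%, 3.98%, 14.5% and 2.39% of all genes tested fell. The 36 held all 22 of the members that fell with every library and 14 that had not passed, and the median over all genes tested was 0.13 in that fit against 0.02 with all libraries. With no filter on low values 13 members fell, where 3.84% of genes did, and without creeping fat 2 and control 2 together 36 fell, where 13.5% did. Among the members, Idh2 and Bckdk were called in none of the settings.

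**Figure D5:**
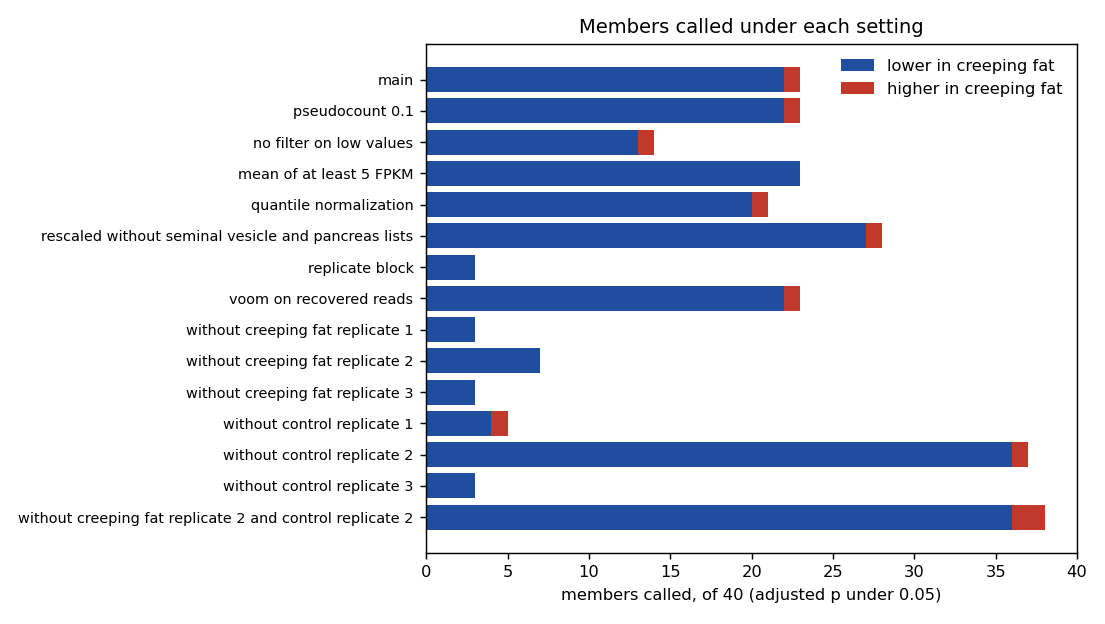
Number of the 40 members called lower (blue) or higher (red) in creeping fat at an adjusted p under 0.05, 1 bar per setting. With all libraries 22 were lower, against 3 to 7 with any library but control 2 left out and 36 without control 2.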

How the data were processed

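Total RNA of 3 creeping fat and 3 control samples was sequenced after ribosomal RNA removal with a stranded kit, from RNA with an integrity number of at least 7, per the labels' protocols. The authors deposited 1 table of FPKM values on the mm10 build, per the submitters' processing notes. The aligner, counting program, annotation and strand setting are not given in the sources used here. Group and replicate number came from the sample titles. Members and lists were chosen with earlier results of these data known.

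A gene was tested where 3 or more of the 6 libraries reached 1 FPKM, which 12812 of 22134 did. Values were log2(FPKM + 1), fitted with limma 3.58.1 (R 4.3.3) with group as the only term and a trend of variance on the mean; p-values are two-sided, adjusted by Benjamini-Hochberg across these genes. The procedure was tested on simulated data. Shares were compared by exact permutation (scipy 1.17.1). Named genes were the 6 largest called changes of each member group, called members against its majority, its 2 most abundant members, all Pdk, Mpc and Bcat genes, and up to 3 called genes in each direction of each other list; 1 gene that this rule names is not reported here.

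Whole reads were recovered from the FPKM steps, within 0.002 reads, for 99.9% of the 18714 genes above 0. The totals of creeping fat 1 to 3 were 36158204, 34934843 and 32837045, and those of control 1 to 3 were 38867151, 31186018 and 43415696, and 3 reads in a gene of 1 kilobase correspond to 0.0691 to 0.0962 FPKM, for counting error only. Other settings were a pseudocount of 0.1, no filter, a mean of at least 5 FPKM, quantile normalization, rescaling, a replicate block, voom on the recovered reads, and leaving out libraries. The sum ratios and the NF-Y motif were added after the data had been seen.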

Additional observations from a re-analysis of the deposited data

How the results depend on the processing

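No member changed direction under any setting, and a pseudocount of 0.1 and voom on recovered reads left all 40 members on the same side of the threshold. In the TCA cycle 4 genes fell with no filter and 13 without creeping fat 2 and control 2 together; in the pyruvate step 1 and 8; over all members 13 and 36. With no filter 18714 genes entered the adjustment. Without both libraries 1 branched-chain gene (Bcat1) rose and 2 members in all, and the medians of the pyruvate step and branched-chain groups were -1.83 and -1.58. Bcat1 had passed the filter only through creeping fat, so the filter favoured that rise. With a mean of at least 5 FPKM 0 members rose, in the pyruvate step and in all, since Pdk3 was not tested. With 1 library left out the counts that fell were 0 to 13 in the TCA cycle, 1 to 8 in the pyruvate step, 2 to 15 in branched-chain breakdown and 3 to 36 in all, 0 to 1 rose in the pyruvate step and in all, and the pyruvate median was -1.70 to -0.94.

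With the replicate number as a block, 0 TCA cycle, 1 pyruvate step and 2 branched-chain genes fell, 3 members in all (Pdk4, Bckdhb and Ivd), and 0 rose. Over all 12812 genes tested 2.95% fell and 4.96% rose in that fit, against 6.81% and 9.35% without the block. Same-numbered libraries share only a number: the deviations from the group means of same-numbered libraries correlated at -0.18, -0.18 and -0.08, and no library correlated best with its own number.

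With 1 library left out, the differences in percentage points ran from -0.84 to 2.23 for the Pdk1 share and from -0.30 to 4.21 for the Suclg2 share, and the difference of Ppm1k over Bckdk from -0.0380 to 0.0425, so these 3 changed sign. On reads without length scaling the Pdk1 share differed by -3.32, the Pdk2 share by 0.0419, the Pdk3 share by 19.9 and the Bcat1 share by 16.4 percentage points. The ratios then differed by 0.341 for the kinases over Pdha1 and Pdhb, 0.37 for Bckdk over Bckdha and Bckdhb, and -0.24 for Mpc1 over Mpc2. Reads without length scaling weight longer genes more by construction. Depth limits Bcat1 most, with 48 reads in control 1.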
